A study of Mus musculus with 4 samples.

Results

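The 9 genes followed are regulators of Sertoli cell identity: *Amh*, *Amhr2*, *Fshr*, *Sox9*, *Sox8*, *Wt1*, *Gata4*, *Nr5a1* and *Cited1*. They were taken by gene symbol, and each symbol named 1 row, so that all 9 of 9 members were found among the 30828 genes of the tables. Testis cells of mice at postnatal day 8 (P8) were enriched by flow sorting on CD9 and THY1, and their transcripts were tagged at the 3′ end in droplets. A UMI (unique molecular identifier) stands for 1 captured molecule, and a barcode for 1 droplet. Control mice carried *Cnot3* alleles flanked by Cre target sites on both chromosomes (flox/flox) and no Cre. *Cnot3*-cKO mice carried the same alleles together with *Ddx4*-creER, a Cre that is made in germ cells and acts only when 4-hydroxytamoxifen (4-OHT) is given. The deletion is thus aimed at germ cells, and Sertoli cells were not its target. Both genotypes received 4-OHT from postnatal day 1. The sample labels end the injections on day 1 and day 2 for the 2 control samples and on day 3 and day 4 for the 2 *Cnot3*-cKO samples, whereas the methods describe the same schedule for all pups; as labelled, the number of injection days and the genotype cannot be told apart.

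Sertoli cells are the somatic nurse cells of the seminiferous cords, where they surround the germ cells and supply them with nutrients and growth factors. In the fetal gonad they arise when *Sry* switches on *Sox9*, and SOX9 together with NR5A1, GATA4 and WT1 then drives *Amh*, whose product, anti-Müllerian hormone, removes the precursor of the female reproductive tract. In neonatal life Sertoli cells still divide, make large amounts of AMH and begin to respond to follicle-stimulating hormone (FSH), and they leave the cell cycle as they mature. AMH acts through its type II receptor AMHR2, and FSH through FSHR. SOX8 is a relative of SOX9 that shares part of its work in the testis. WT1 is a zinc-finger factor of the gonad, kidney and mesothelium. GATA4 is a zinc-finger factor of gonadal somatic cells and the heart. NR5A1, also called SF-1, is a nuclear receptor needed for gonads and adrenal glands. CITED1 is a co-activator that binds CBP and p300.

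All 9 members are protein-coding genes (GRCm38, GENCODE M21 positions of whole genes, exons and introns together). *Amh* lies at chr10:80805243-80807648 on the plus strand, *Amhr2* at chr15:102445367-102454633 on the plus strand and *Fshr* at chr17:88984952-89200675 on the minus strand. *Sox9* lies at chr11:112782224-112787760 (plus), *Sox8* at chr17:25565892-25570686 (minus) and *Wt1* at chr2:105126529-105173616 (plus). *Gata4* lies at chr14:63198922-63271692 (minus), *Nr5a1* at chr2:38692656-38714542 (minus) and *Cited1* at chrX:102247381-102252181 (minus). Of these, 2 overlap a gene on the other strand: *Sox8* overlaps 2810468N07Rik and *Nr5a1* overlaps Nr5a1os.

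The promoters of the 2 receptor genes are shown because AMHR2 and FSHR are the receptors of AMH and FSH and because letters read by other members occur in them. Sequences are from RefSeq (GRCm38.p6), from 250 bases before to 50 bases after the annotated start, on the strand of the gene; 4 of the 9 members had an entry (*Amhr2*, *Fshr*, *Sox8* and *Cited1*). Capitals mark matches, on either strand, to AAGGTCA (an NR5A1 element), GATAA (GATA factors), CACGTG (an E-box) and AACAAT (SOX factors).
Amhr2, chr15:102445117-102445416, plus strand: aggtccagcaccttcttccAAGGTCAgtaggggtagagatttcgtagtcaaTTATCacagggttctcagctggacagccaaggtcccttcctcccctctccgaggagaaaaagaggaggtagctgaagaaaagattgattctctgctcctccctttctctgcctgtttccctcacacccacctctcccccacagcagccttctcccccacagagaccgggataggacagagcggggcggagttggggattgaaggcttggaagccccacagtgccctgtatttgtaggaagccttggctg
Fshr, chr17:89200626-89200925, minus strand: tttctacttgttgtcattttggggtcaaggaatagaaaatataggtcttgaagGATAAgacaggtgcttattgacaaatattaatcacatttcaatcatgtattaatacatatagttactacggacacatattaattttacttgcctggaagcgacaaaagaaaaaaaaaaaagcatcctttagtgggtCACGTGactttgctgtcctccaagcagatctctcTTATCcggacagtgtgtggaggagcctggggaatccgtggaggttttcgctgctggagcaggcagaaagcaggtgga

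The *Amhr2* window held 1 NR5A1 element and 1 GATA match in reverse. The *Fshr* window held 1 E-box and 2 GATA matches, 1 in each direction. Among the 32851 promoter windows of the same length, 4.72% held the NR5A1 element, 25.4% the GATA letters, 7.15% the E-box and 10.7% the SOX letters. Of the other members with an entry, *Sox8* had 1 E-box, and 1 of the 3 *Cited1* windows had an NR5A1 element and a GATA match. A match of letters is a description of the sequence and no evidence of binding.

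Each genotype had 1 matrix in which its 2 labelled samples are merged, so the comparison is between 1 control and 1 *Cnot3*-cKO library. There were no replicates, no test between genotypes was made, and all intervals are 95% intervals that cover counting error only. The libraries held 181550221 and 168770743 UMIs, and 5615 control and 6034 *Cnot3*-cKO barcodes passed a calling step made for this work and the study's stated filters, so that their number need not equal the study's own cell numbers, with a median of 14183 and 13215 UMIs per barcode. Of these, 7 barcode sequences occurred in both libraries. Sertoli barcodes were those with at least 0.3% of their UMIs from *Cst12*, *Cst9* and *Rhox8*, products of Sertoli cells, and without markers of another class. *Cnot3* itself stood at 68.9 CPM (UMIs scaled to 1000000 UMIs of the class; 95% interval 62.8 to 75.4) in control and 38.5 CPM (29.0 to 49.9) in *Cnot3*-cKO germ barcodes, and at 64.6 and 66.6 CPM in Sertoli barcodes. Whether the 3′ tags lie in the deleted part of *Cnot3* is not given in the sources used here. As the matrices were sorted for spermatogonial surface proteins, shares of barcodes are in part set by the sort.

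There were 1359 control Sertoli barcodes, 24.2% of the library (exact 95% interval 23.1 to 25.3), and 1657 in *Cnot3*-cKO, 27.5% (26.3 to 28.6). Their label was checked against 7 further Sertoli genes that the rule does not use, which together made up 8939 CPM in control and 9301 CPM in *Cnot3*-cKO Sertoli barcodes against 434 and 479 CPM in stroma. None of the 7 was at 0. Germ cell markers summed to 27.5 and 19.7 CPM in the Sertoli barcodes, and stromal markers to 86.4 and 69.8 CPM. Macrophage markers summed to 1.76 and 2.71 CPM, and endothelial markers to 11.9 and 10.3 CPM. Myoid markers (21.03 and 44.3 CPM) and Leydig markers (10.42 and 15.05 CPM) were higher in *Cnot3*-cKO. *Cst9* led the class in control. In *Cnot3*-cKO the haemoglobin genes *Hbb-bs*, *Hba-a1* and *Hba-a2* led it, ahead of *Cst9*. Median mitochondrial shares were 8.91% and 9.01%. Barcodes with at least 0.1% of their UMIs from cell cycle genes were called cycling, 236 in control and 246 in *Cnot3*-cKO.

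Members were compared first between genotypes within Sertoli barcodes, to ask whether regulators of the nurse cells differ when *Cnot3* is deleted in germ cells. Every member was present in both libraries. Differences were small: *Amh* and *Wt1* were lower in *Cnot3*-cKO, at 0.869 and 0.872 of the control level, *Fshr* was 1.26-fold higher, and the other 6 members lay between 0.932 and 1.10 of the control level.

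*Amh* stood at 542 CPM (532 to 552) in control and 471 CPM (463 to 480) in *Cnot3*-cKO, from 11087 and 11150 UMIs. Ratios are given throughout as *Cnot3*-cKO divided by control, and for *Amh* the log2 ratio was -0.20 (-0.24 to -0.16). The intervals of the 2 libraries did not overlap. *Amhr2*, the receptor of the hormone, stood at 395 CPM (386 to 404) and 368 CPM (361 to 376), a log2 ratio of -0.10 (-0.14 to -0.06). Ligand and receptor were thus both lower in *Cnot3*-cKO, the receptor by less.

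*Fshr*, the FSH receptor, was the member with the fewest UMIs, 289 in control and 423 in *Cnot3*-cKO. It stood at 14.1 CPM (12.6 to 15.9) and 17.9 CPM (16.2 to 19.7), a log2 ratio of 0.34 (0.12 to 0.56), the highest of the 9. The intervals of the 2 libraries did not overlap, although the interval of the ratio reached close to 0.

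*Sox9* stood at 514 CPM (505 to 524) in control and 498 CPM (489 to 507) in *Cnot3*-cKO, for a log2 ratio of -0.05 (-0.09 to -0.01). *Sox8* stood at 69.1 CPM (65.5 to 72.8) and 66.5 CPM (63.2 to 69.9), a log2 ratio of -0.06 (-0.16 to 0.05). Both SOX genes thus differed little, and for *Sox8* the interval of the ratio spanned 0. *Wt1* stood at 366 CPM (358 to 374) and 319 CPM (312 to 326), a log2 ratio of -0.20 (-0.24 to -0.15), of the same size as that of *Amh*.

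*Gata4* stood at 148 CPM (143 to 153) in control and 156 CPM (151 to 161) in *Cnot3*-cKO, for a log2 ratio of 0.08 (0.01 to 0.15). *Nr5a1* stood at 72.5 CPM (68.8 to 76.3) and 79.7 CPM (76.1 to 83.4), a log2 ratio of 0.14 (0.04 to 0.24). *Cited1*, the co-activator, stood at 775 CPM (763 to 787) and 809 CPM (798 to 821), a log2 ratio of 0.06 (0.03 to 0.09). These 3 members were slightly higher in *Cnot3*-cKO.

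**Figure D1:**
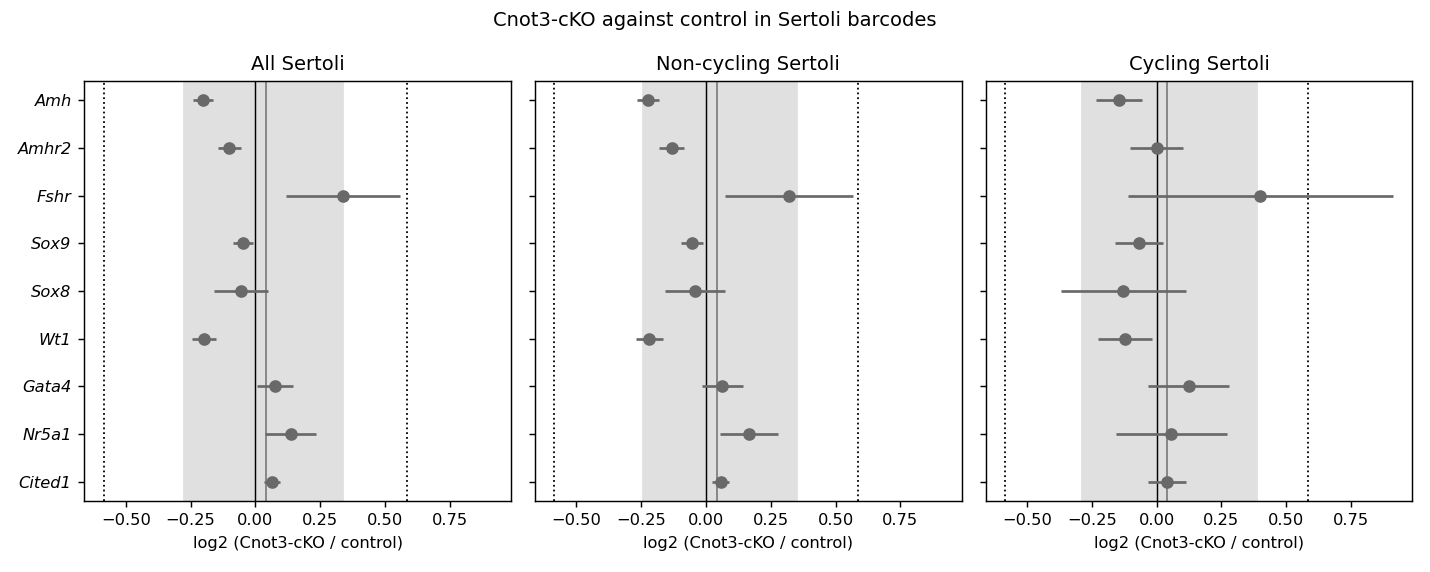
Log2 of *Cnot3*-cKO divided by control for the 9 genes in all, non-cycling and cycling Sertoli barcodes. Points are ratios of CPM with exact 95% counting intervals, the grey band spans the 5th to 95th percentile of all genes with at least 100 UMIs, the grey line is their median, and dotted lines mark 1.5-fold; *Amh* and *Wt1* sit left of 0 in all 3 panels and no point passes 1.5-fold.

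None of the 9 members differed by 1.5-fold or more, a size that 1.99% of all 11028 genes with at least 100 UMIs reached. The counting interval lay wholly below 0 for 4 members (*Amh*, *Amhr2*, *Sox9* and *Wt1*) and wholly above 0 for 4 (*Fshr*, *Gata4*, *Nr5a1* and *Cited1*), against 10.4% and 19.9% of all genes. At this depth such intervals are narrow, and with 1 library per genotype they say nothing of the spread between animals. The median log2 ratio over the members was -0.05, beside 0.04 over all genes, whose 5th and 95th percentiles were -0.28 and 0.34. *Amh* and *Wt1* lay at the 7.75th and 8.04th percentile of all genes and *Fshr* at the 95.1st.

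The values were also taken apart by the cell cycle. In non-cycling Sertoli barcodes (1123 and 1411), the log2 ratio was -0.22 for *Amh*, -0.13 for *Amhr2*, -0.22 for *Wt1* and 0.32 for *Fshr*. In cycling barcodes it was -0.14 (-0.23 to -0.06) for *Amh*, 0.00 (-0.10 to 0.10) for *Amhr2*, -0.12 (-0.22 to -0.02) for *Wt1* and 0.40 (-0.11 to 0.91) for *Fshr*. The direction for *Amh*, *Wt1* and *Fshr* was thus the same in both kinds of barcode. No member passed 1.5-fold in either, against 1.78% of genes in non-cycling and 1.83% in cycling barcodes.

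Barcodes of higher mitochondrial share, which the study's filter leaves out, gave like values. Among barcodes with 10 to 15% mitochondrial UMIs, *Amh* stood at 548 CPM in 1387 control and 489 CPM in 2484 *Cnot3*-cKO barcodes, and *Wt1* at 383 and 324 CPM. *Fshr* stood there at 16.1 CPM (14.4 to 18.1) and 19.9 CPM (18.4 to 21.5). The order of the 2 libraries was therefore the same for these 3 genes in barcodes outside the filter.

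Non-cycling Sertoli barcodes were further parted at the median level of *Tnni3*, a troponin gene, taken over both libraries. The 9 members differed little between the parts. The log2 ratio of *Tnni3*-high over *Tnni3*-low barcodes ranged in control from -0.13 for *Gata4* and *Wt1* to 0.13 for *Amhr2*, and in *Cnot3*-cKO from -0.20 (-0.52 to 0.11) for *Fshr* to 0.17 (0.12 to 0.23) for *Sox9*. *Amhr2* was higher in *Tnni3*-high barcodes of both libraries, and *Wt1* was lower there in both, with intervals clear of 0.

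The members varied with the share of Sertoli products that defines the class. In control barcodes just inside the limit, with 0.3 to 0.4% of UMIs from the 3 rule genes, *Amh* stood at 379 CPM and *Cited1* at 552 CPM; above 0.4% they stood at 557 and 800 CPM. Just outside, at 0.2 to 0.3%, they stood at 289 and 398 CPM, and there 80 of 131 barcodes, against 47 of 212 just inside, also passed the limit of an interstitial marker list. *Gata4* and *Nr5a1* differed less across these ranges, from 114 and 59.8 CPM just outside to 147 and 71.9 CPM above 0.4%.

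The share of barcodes with at least 1 UMI was computed after thinning each barcode to 7500 UMIs, which no Sertoli barcode fell below. In Sertoli barcodes *Cited1* was seen in 97.2% in control and 96.7% in *Cnot3*-cKO, *Sox9* in 93.97% and 93.90%, and *Amhr2* in 93.1% (91.6 to 94.4) and 90.9% (89.4 to 92.2). *Amh* was seen in 93.6% (92.2 to 94.8) and 90.9% (89.4 to 92.2), and *Wt1* in 91.0% (89.4 to 92.5) and 87.3% (85.6 to 88.8). For *Wt1* the exact intervals of the 2 shares did not overlap, and for *Amh* and *Amhr2* they overlapped.

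*Gata4* was seen in 65.05% in control and 67.4% in *Cnot3*-cKO, *Nr5a1* in 41.1% and 43.6%, and *Sox8* in 39.2% and 35.1%. *Fshr* was seen in 9.86% (8.33 to 11.6) and 12.3% (10.7 to 13.9); without thinning it was seen in 18.9% and 22.4%. In germ barcodes, which should lack FSH receptor, there was a UMI in 0 of 228 barcodes in control and 0 of 68 in *Cnot3*-cKO, which allows shares of up to 1.32% and 4.41% of barcodes with a UMI. A Sertoli barcode held UMIs of a median of 6 of the 9 members after thinning, against 1 in stroma, and no Sertoli barcode held fewer than 2.

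**Figure D2:**
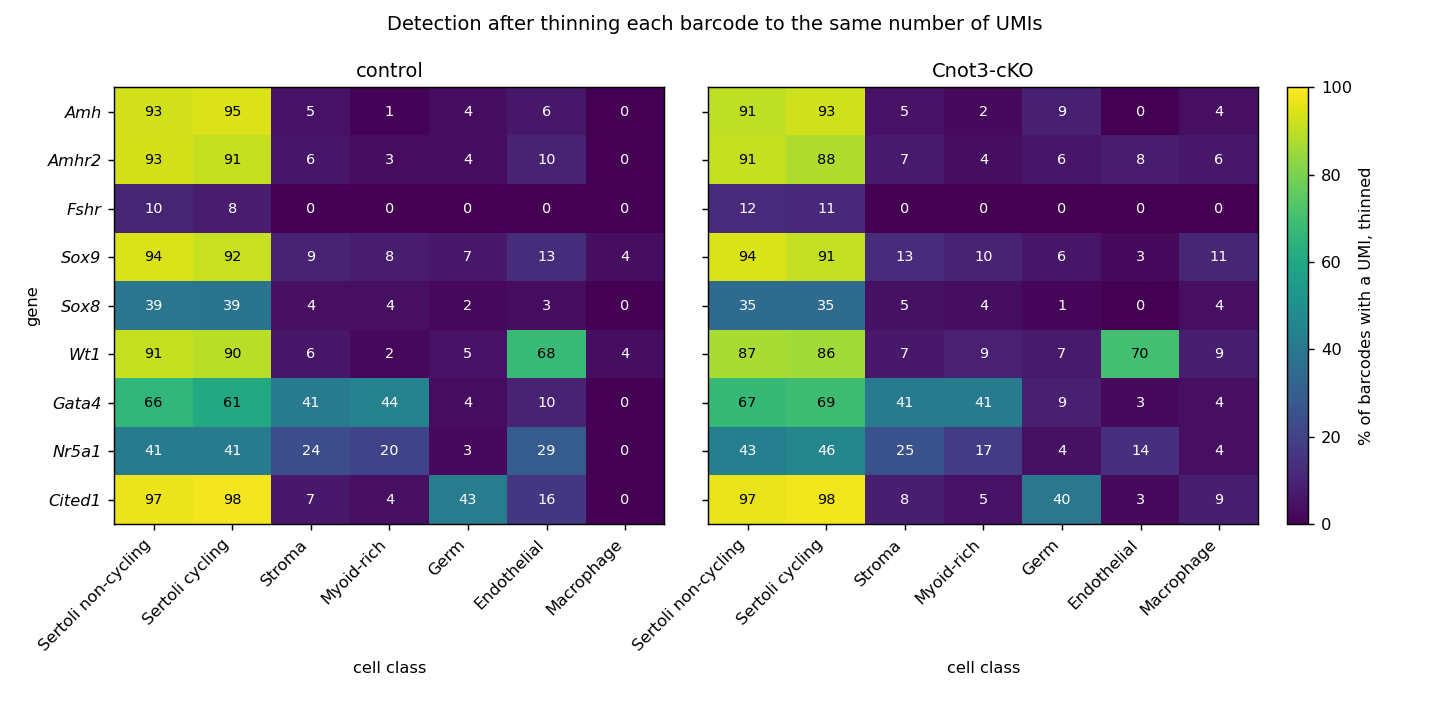
Percentage of barcodes with at least 1 UMI of each gene (rows) in each cell class (columns), after thinning every barcode to 7500 UMIs, for the control and the *Cnot3*-cKO library. *Cited1*, *Sox9*, *Amh*, *Amhr2* and *Wt1* are seen in 86% or more of Sertoli barcodes; *Gata4* and *Nr5a1* extend into stroma and myoid-rich barcodes, *Wt1* into endothelial and *Cited1* into germ barcodes.

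Cycling and non-cycling Sertoli barcodes were then compared within each library, since Sertoli cells of this age still divide. In both libraries 4 members were lower in cycling barcodes with intervals wholly below 0: *Amh*, *Amhr2*, *Sox9* and *Cited1*. The other 5 members differed little, and no member was higher in cycling barcodes with an interval clear of 0.

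*Sox9* stood at 535 CPM in non-cycling and 444 CPM in cycling control barcodes, a log2 ratio of cycling over non-cycling of -0.27 (-0.34 to -0.20). In *Cnot3*-cKO it stood at 515 and 423 CPM, a log2 ratio of -0.28 (-0.36 to -0.21). The size was thus alike in both libraries. *Cited1* stood at 803 and 679 CPM in control, a log2 ratio of -0.24 (-0.30 to -0.18), and at 835 and 698 CPM in *Cnot3*-cKO, for a log2 ratio of -0.26 (-0.31 to -0.20).

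*Amh* stood at 560 CPM in non-cycling and 480 CPM in cycling control barcodes, a log2 ratio of -0.22 (-0.29 to -0.15), and at 480 and 434 CPM in *Cnot3*-cKO, for a log2 ratio of -0.14 (-0.22 to -0.07). *Amhr2* stood at 408 and 349 CPM in control, a log2 ratio of -0.23 (-0.31 to -0.15), and at 373 and 349 CPM in *Cnot3*-cKO, for a log2 ratio of -0.09 (-0.17 to -0.01). For these hormone and receptor genes the step was smaller in *Cnot3*-cKO, where the non-cycling level was lower; the difference between libraries was not tested.

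*Wt1* stood at 371 and 348 CPM in control, a log2 ratio of -0.09 (-0.17 to -0.01), and at 319 and 320 CPM in *Cnot3*-cKO, for a log2 ratio of 0.01 (-0.08 to 0.09). *Gata4* (-0.06 and 0.00), *Sox8* (-0.04 and -0.13) and *Fshr* (-0.15 and -0.07) had intervals that spanned 0 in both libraries. So did *Nr5a1*, the only member with a higher value in cycling barcodes of both libraries (0.16 and 0.05).

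**Figure D3:**
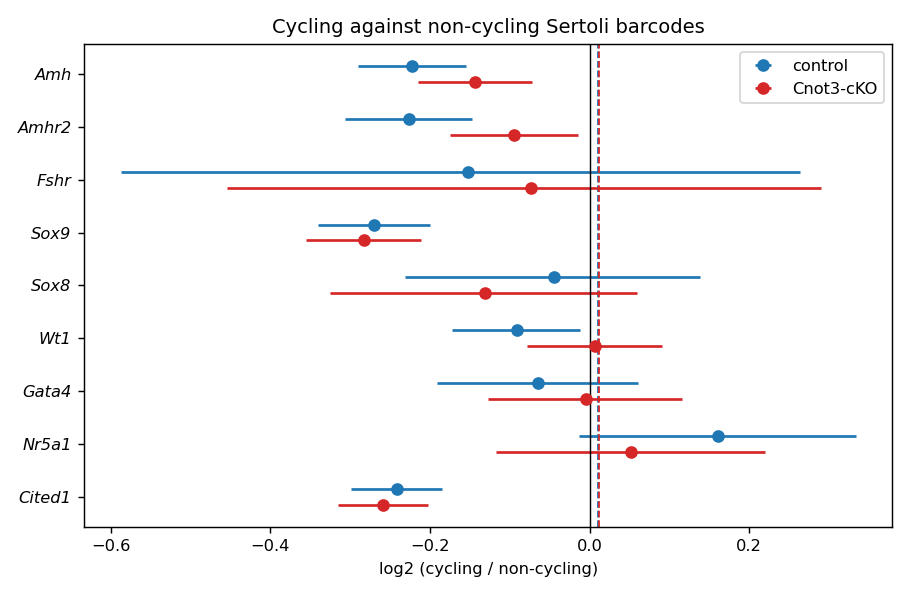
Log2 ratio of cycling over non-cycling Sertoli barcodes for the 9 genes, by library, with exact 95% counting intervals. Dashed lines mark the median of all genes with at least 100 UMIs in each library and lie on each other; *Amh*, *Amhr2*, *Sox9* and *Cited1* sit left of 0 in both libraries.

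No member passed 1.5-fold between cycling and non-cycling barcodes, which 15.2% of 9952 genes did in control and 15.5% of 10206 genes in *Cnot3*-cKO. Intervals wholly below 0 were found for 5 of 9 members in control and 4 of 9 in *Cnot3*-cKO, against 18.8% and 18.7% of all genes. Cycling barcodes were deeper, with medians of 19224 and 18339 UMIs against 13401 and 13084, and held less of the 3 rule genes, 4685 and 4835 CPM against 5875 and 5877 CPM. With the Sertoli limit raised to 0.6%, the log2 ratio became 0.048 for *Amh* and 0.080 for *Amhr2* in *Cnot3*-cKO; for *Sox9* it was -0.12 in control and -0.15 in *Cnot3*-cKO. The part of the rule genes in these differences was not tested further.

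The levels of each member were next compared across classes, taken as barcodes with markers of 1 kind of cell. Stroma (2983 control and 3249 *Cnot3*-cKO barcodes) and a myoid-rich interstitial class (799 and 733) were large, germ barcodes numbered 228 and 68, and endothelial (31 and 37) and macrophage barcodes (27 and 47) were few. Over these classes each of the 9 members was highest in Sertoli barcodes in both libraries. The few barcodes with Leydig markers (4 and 11) were left out of this order; *Nr5a1* stood in them at 77.1 CPM (7 UMIs) and 165 CPM (110 to 236; 29 UMIs), above its Sertoli level in *Cnot3*-cKO. Where given, the level that free RNA would give was computed from the profile of empty barcodes. It was scaled to the share of Sertoli rule genes in the class, and in the Sertoli classes to that of germ markers. Outside the Sertoli classes, rule genes from Sertoli content of single barcodes also count in that share, so the level need not be one of free RNA alone.

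**Figure D4:**
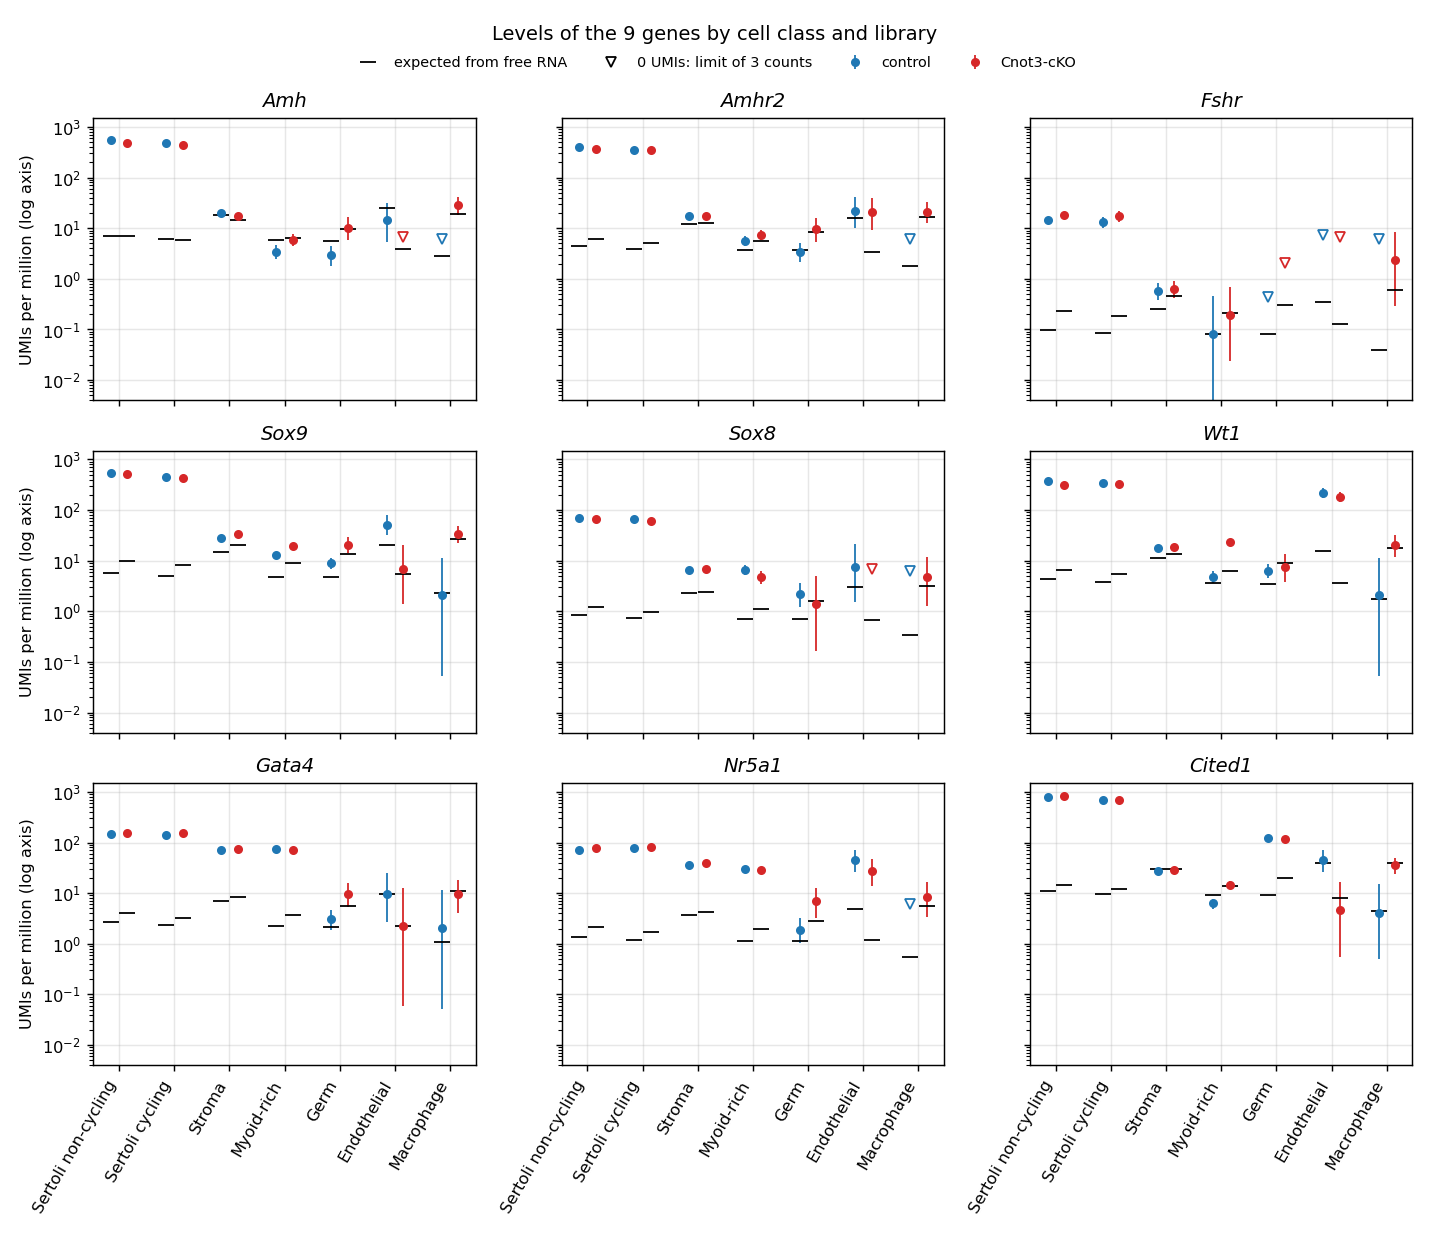
Level of each gene in CPM (log axis) in 7 cell classes of the control and *Cnot3*-cKO libraries, with exact 95% Poisson intervals. Black dashes give the level expected from free RNA and open triangles the limit that 3 counts set where no UMI was found; outside Sertoli barcodes, *Gata4* and *Nr5a1* in stroma and myoid-rich, *Wt1* in endothelial and *Cited1* in germ barcodes stand far above the dashes.

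*Amh* stood at 20.1 CPM in control and 17.3 CPM in *Cnot3*-cKO stroma, where free RNA would give 18.3 and 14.4 CPM. In germ barcodes it stood at 2.94 and 10.3 CPM against 5.66 and 9.52 CPM from free RNA, and in myoid-rich barcodes at 3.46 and 5.92 CPM against 5.78 and 6.44 CPM. *Amh* was thus above that level in stroma of both libraries, and near or below it in germ and myoid-rich barcodes. As the level is scaled to Sertoli rule genes, it cannot tell free RNA from Sertoli content of single barcodes. Most of the stromal *Amh*, 655 of 907 UMIs in control and 505 of 783 in *Cnot3*-cKO, lay in 105 and 110 barcodes that also had 3 or more *Wt1* UMIs. When stromal barcodes with 0.05% or more of the Sertoli rule genes were left out (135 and 155), *Amh* stood at 1.92 and 2.17 CPM, so that Sertoli barcodes were 283-fold (227 to 357) and 217-fold (177 to 270) higher.

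*Fshr* stood at 0.58 CPM (0.38 to 0.84) and 0.62 CPM (0.41 to 0.89) in stroma, from 26 and 28 UMIs, against 0.26 and 0.47 CPM from free RNA, and had no UMI in germ or endothelial barcodes. *Cited1* stood in stroma at 27.4 and 28.8 CPM, below the 29.5 and 30.3 CPM that free RNA would give. *Sox9* stood there at 28.5 and 33.2 CPM against 15.2 and 20.3 CPM, *Wt1* at 18.2 and 18.3 CPM against 11.4 and 13.7 CPM, and *Amhr2* at 17.3 and 17.4 CPM against 12.0 and 12.7 CPM. These 3 genes were thus above the level scaled to the Sertoli rule genes in stroma of both libraries. After the stromal barcodes with Sertoli gene content were left out, *Sox9* stood at 8.63 and 14.3 CPM, *Amhr2* at 3.71 and 5.74 CPM, *Wt1* at 4.31 and 5.50 CPM and *Cited1* at 4.48 and 6.07 CPM. The Sertoli level was then between 34.8-fold and 173-fold higher for these 4 genes.

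*Sox8* behaved otherwise. It stood in stroma at 6.67 and 6.76 CPM against 2.27 and 2.44 CPM from free RNA, and at 4.77 and 4.86 CPM after barcodes with Sertoli gene content were left out, where the Sertoli level was 14.5-fold and 13.7-fold higher. In myoid-rich barcodes it stood at 6.59 and 4.66 CPM against 0.71 and 1.09 CPM from free RNA. A low level of *Sox8* was thus present in both interstitial classes of both libraries.

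*Gata4* and *Nr5a1* had the smallest folds between Sertoli barcodes and stroma. *Gata4* stood at 72.5 and 75.1 CPM in stroma and at 75.2 and 70.8 CPM in myoid-rich barcodes, where the intervals of the 2 classes overlapped in each library, and free RNA would give at most 8.27 CPM. *Nr5a1* stood at 36.3 CPM (34.5 to 38.1) and 39.6 CPM (37.8 to 41.5) in stroma and at 30.7 CPM (27.6 to 33.9) and 28.4 CPM (25.3 to 31.9) in myoid-rich barcodes, with at most 4.30 CPM from free RNA. Sertoli barcodes were 2.04-fold and 2.08-fold higher than stroma for *Gata4*, and 1.998-fold and 2.013-fold higher for *Nr5a1*. In germ barcodes both genes were low, *Gata4* at 3.08 and 9.61 CPM and *Nr5a1* at 1.91 and 6.87 CPM, against 2.17 and 5.46 CPM and 1.12 and 2.84 CPM from free RNA.

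A Sertoli level at least 2-fold above stroma was thus reached by 8 of 9 members in control, where *Nr5a1* was just short of it, and 9 of 9 in *Cnot3*-cKO, against 17.5% of 12339 and 19.8% of 12382 genes.

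*Cited1* was the member with the highest count in germ barcodes. It stood there at 124 CPM (116 to 133; 847 UMIs) in control and 117 CPM (100 to 136; 171 UMIs) in *Cnot3*-cKO, where free RNA would give 9.10 and 20 CPM. After thinning it was seen in 42.5% (36.0 to 49.2) and 39.7% (28.03 to 52.3) of germ barcodes, against 6.70% and 8.34% in stroma. The ratio of *Cited1* to *Amh* UMIs was 42.4 and 11.4 in germ barcodes, against 1.61 and 2.10 in empty barcodes and 1.43 and 1.72 in Sertoli barcodes. The Sertoli level remained 6.23-fold and 6.89-fold above that of germ barcodes, and the 2 libraries did not differ detectably at this depth (log2 ratio -0.08, -0.33 to 0.16). In the wider set of germ barcodes (1260 and 538) *Cited1* stood at 92.1 and 82.1 CPM, with a log2 ratio of -0.17 (-0.24 to -0.09).

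*Wt1* had a level of its own in endothelial barcodes. It stood there at 219 CPM (176 to 269) in control, from 89 UMIs, and at 185 CPM (147 to 230) in *Cnot3*-cKO, from 81 UMIs, where free RNA would give 15.4 and 3.70 CPM. At least 1 *Wt1* UMI was found in 26 of 31 and 29 of 37 endothelial barcodes, while *Amh* had 6 and 0 UMIs in all of them. The Sertoli level was 1.67-fold (1.36 to 2.08) and 1.73-fold (1.39 to 2.18) higher. *Gata4* had 4 and 1 UMIs there, and *Sox8* 3 and 0. *Sox9* stood at 51.6 CPM (32.0 to 78.9; 21 UMIs) in control and 6.85 CPM (1.41 to 20.01; 3 UMIs) in *Cnot3*-cKO, against 20.4 and 5.48 CPM from free RNA. Without 2 control barcodes of Sertoli gene content, the control level of *Sox9* was 16.6 CPM (6.10 to 36.2; 6 UMIs), and the intervals overlapped. In the wider set of endothelial barcodes (32 and 42) its log2 ratio was -0.06 (-0.95 to 0.84). *Nr5a1* stood at 44.2 CPM (26.2 to 69.9) and 27.4 CPM (14.2 to 47.8), against 4.89 and 1.16 CPM from free RNA. *Cldn5*, a tight junction gene of endothelium, led the class in both libraries.

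Outside Sertoli barcodes, the widest difference between genotypes among members with at least 100 UMIs in a class was that of *Wt1* in myoid-rich barcodes. In myoid-rich barcodes *Wt1* stood at 4.86 CPM (3.70 to 6.27; 59 UMIs) in control and 23.5 CPM (20.6 to 26.6; 242 UMIs) in *Cnot3*-cKO, for a log2 ratio of 2.27 (1.86 to 2.71) and a ratio of 4.83. Free RNA would give 3.60 and 6.12 CPM. Barcodes with 3 or more *Wt1* UMIs numbered 4 of 799 and 36 of 733. Members with fewer UMIs also differed in germ barcodes. There *Nr5a1* (13 and 10 UMIs) was 3.60-fold, *Amh* (20 and 15 UMIs) 3.51-fold and *Gata4* (21 and 14 UMIs) 3.12-fold higher in *Cnot3*-cKO. *Amhr2* (23 and 14 UMIs) was 2.85-fold and *Sox9* (60 and 30 UMIs) 2.34-fold higher. The estimated free RNA share was 3.45% in control and 5.61% in *Cnot3*-cKO germ barcodes. In the wider set of germ barcodes (1260 and 538) these ratios were smaller. They were 1.36 for *Nr5a1*, 1.07 for *Amh*, 1.35 for *Gata4*, 1.26 for *Amhr2* and 1.20 for *Sox9*.

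*Cited1* and *Amh* were also past 1.5-fold in myoid-rich barcodes, with log2 ratios of 1.21 and 0.78. With *Wt1* this makes 3 of the 8 members with at least 100 UMIs, against 2.76% of 10304 genes. Their levels, 6.26 and 14.5 CPM for *Cited1* and 3.46 and 5.92 CPM for *Amh*, were near those expected from free RNA (9.29 and 13.5 CPM, and 5.78 and 6.44 CPM). When barcodes with Sertoli gene content were left out (7 and 12 barcodes), *Amh* had a log2 ratio of 0.76 (-0.29 to 1.86), *Cited1* of 0.65 (0.06 to 1.248) and *Wt1* of 3.05 (2.47 to 3.68). *Wt1* was then at 2.34 and 19.4 CPM.

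The 29 remaining *Cnot3*-cKO myoid-rich barcodes with 3 or more *Wt1* UMIs held no *Amh* UMI, and their *Acta2* level, a smooth muscle actin, was 3037 CPM against 3554 CPM in the other 692. Apart from *Wt1*, the genes most enriched in them with at least 100 UMIs were *Adam33* (434 against 14.0 CPM), *Igfbp3* (1089 against 43.1 CPM), *Ramp1* (465 against 24.6 CPM) and *Pdgfrl* (373 against 28.4 CPM). Of the Sertoli rule genes, *Cst12* stood in them at 9.18 against 14.2 CPM, *Cst9* at 6.12 against 9.36 CPM and *Rhox8* at 45.9 against 14.1 CPM. These barcodes and genes were picked after their values were seen and are given as a description. More cells of 1 kind and more *Wt1* per cell cannot be told apart in summed counts, and neither can the genotype and the single library that carries it.

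In stroma no member differed by 1.5-fold between genotypes, against 2.43% of 12645 genes. *Nr5a1* had a log2 ratio of 0.13 (0.03 to 0.22) and *Gata4* of 0.05 (-0.02 to 0.12). The widest were *Sox9* (0.22, 0.11 to 0.33) and *Amh* (-0.22, -0.36 to -0.08). Without stromal barcodes of Sertoli gene content, a setting chosen after seeing the data, *Sox9* and *Amhr2* were past 1.5-fold among members with at least 100 UMIs. *Sox9* then stood at 8.63 (7.76 to 9.57) and 14.3 CPM (13.2 to 15.5), and *Amhr2* at 3.71 (3.15 to 4.35) and 5.74 CPM (5.04 to 6.51). The share of all genes past it there was not computed.

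The genes around the members were described as lists. Of 12 genes of AMH signalling, 10 had at least 100 UMIs in Sertoli barcodes and none of the 10 was past 1.5-fold between genotypes, with a median log2 ratio of 0.02. The type I receptor *Bmpr1a* stood at 60.2 and 63.8 CPM, and the signal transducer *Smad1* at 12.7 and 14.5 CPM. *Id3*, a target of BMP-type SMAD signals, stood at 108 and 140 CPM, a log2 ratio of 0.37 (0.29 to 0.45), and the inhibitor *Smad6* at 7.87 and 9.51 CPM (log2 ratio 0.27, -0.03 to 0.57).

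Of 17 genes of FSH signalling and response, 16 had enough UMIs and none was past 1.5-fold, with a median log2 ratio of 0.12. The adenylyl cyclase gene *Adcy6* stood at 5.72 and 7.78 CPM (log2 ratio 0.44, 0.10 to 0.79), *Adcy9* at 24.6 and 28.2 CPM and *Adcy3* at 6.94 and 5.79 CPM. *Pde4d*, which breaks down the cyclic AMP that FSHR raises, stood at 3.81 and 3.34 CPM. No UMI of the aromatase gene *Cyp19a1* was found in the Sertoli barcodes of either library.

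Of 18 genes of testis determination, 9 had enough UMIs and none was past 1.5-fold, with a median log2 ratio of -0.03. *Ptgds*, which makes the prostaglandin that helps to spread *Sox9* expression in the fetal testis, stood at 91.3 and 72.5 CPM (log2 ratio -0.33, -0.43 to -0.24). *Map3k4* stood at 65.2 and 75.2 CPM, *Gadd45g* at 20.4 and 17.9 CPM, and the GATA4 partner *Zfpm2* at 27.8 and 25.6 CPM.

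Of 7 genes of the ovarian pathway, which opposes *Sox9* in the gonad, only 3 had enough UMIs. Past 1.5-fold were 2 of the 3, both higher in *Cnot3*-cKO, against 1.99% of all genes. The median log2 ratio of the 3 was 0.69, beside 0.04 over all genes. *Fst*, an activin antagonist, stood at 5.38 CPM (110 UMIs) and 8.67 CPM (205 UMIs), a log2 ratio of 0.69 (0.35 to 1.04). *Esr2*, an oestrogen receptor, stood at 2.45 CPM (50 UMIs) and 4.10 CPM (97 UMIs), a log2 ratio of 0.75 (0.24 to 1.27). *Ctnnb1* stood at 284 and 322 CPM. *Foxl2*, the factor that defines the ovarian counterpart of Sertoli cells, had 7 and 9 UMIs in all Sertoli barcodes. In the wider set of barcodes 1 of 4 genes with enough UMIs, *Esr2* (log2 ratio 0.81, 0.45 to 1.18), was past 1.5-fold, against 2.07% of all genes. *Fst* had a log2 ratio of 0.35 (0.16 to 0.55) there and *Ctnnb1* of 0.15 (0.11 to 0.18). *Wnt4*, from 50 and 58 UMIs, lay the other way, at -0.31 (-0.88 to 0.27). The median of the list was 0.25, beside 0.03 over all genes.

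Of 12 genes of Sertoli maturation, 10 had enough UMIs and none was past 1.5-fold, with a median log2 ratio of 0.06. *Gja1*, the gap junction gene connexin 43, stood at 313 and 450 CPM, a log2 ratio of 0.52 (0.48 to 0.57). The keratins *Krt18* and *Krt8*, which mark immature Sertoli cells, stood at 27.3 and 21.9 CPM and at 16.6 and 13.4 CPM (log2 ratios -0.32 and -0.31). Over the 5 lists, 2 of 48 genes with enough UMIs were past 1.5-fold (4.17%, beside 1.99% of all genes).

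The genes whose pattern was most like that of each member were named by Pearson's r of log2(CPM + 1) over 14 points, 7 classes in 2 libraries, among 11022 genes; points of 1 library share its depth and free RNA, and points of 1 class share its cells. *Wfdc10* was nearest to *Amh* (r = 0.9902), *Clu* to *Amhr2* (0.994), *Cst12* to *Sox9* (0.992) and *Smpx* to *Sox8* (0.992). *Cst12* is a Sertoli rule gene, so its high level in the Sertoli points was set by the choice of barcodes. *Exoc3l2* was nearest to *Wt1* (0.979), and the antisense neighbour *Wt1os* was also among its 3 nearest (0.976). *Sobp* was nearest to *Gata4* (0.980), *Kcnh2* to *Nr5a1* (0.979) and RP23-105I10.5 to *Fshr* (0.995). *Cgn* was among the 3 nearest to *Cited1* (0.983). Among the members themselves, *Amh* and *Sox9* were most alike (0.985), and *Wt1* and *Gata4* least (0.468).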

How the data were processed

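The deposited files hold raw UMI counts per gene and barcode that the authors made with Cell Ranger 3.0.1 against Ensembl 93 (mm10), as 2 matrices of all barcodes, each merging both samples of a genotype. Barcodes were called at the 99th percentile of the top 3000 divided by 10. Following the study, those over 10% mitochondrial UMIs or beyond 2 SD of UMIs or genes were left out; a wider set had 20% and no upper bound. Classes were given by the share of UMIs from marker lists (limits 0.1% or 0.3%, set after the distributions were seen). Barcodes of several kinds were set apart, and no doublet caller was run. The class with Leydig markers (4 and 11 barcodes) was not compared, since mast cell protease genes led it in *Cnot3*-cKO.

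Summed counts were divided by all UMIs of the class and given as CPM, with exact Poisson intervals; ratios have exact conditional and shares exact Clopper-Pearson intervals. A count of 0 was read as up to 3 counts. Tags are counted at the 3′ end and not divided by length, so genes were not ranked against each other. Free RNA was estimated from barcodes of at most 100 UMIs. The ratio step was checked on simulated data. Named genes are the 9 members, up to 4 genes of each list with the largest log2 ratio in size among those with at least 100 UMIs, and the 3 genes most like each member, of which some are not reported here; other genes were chosen after their values were seen. Members, lists and most markers were chosen with earlier results of these data known. Of 30828 gene identifiers, 99.8% matched GENCODE M21. Tools were Python 3.11.15, numpy 2.4.6, scipy 1.17.1, pandas 2.3.3 and matplotlib 3.10.9.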

Additional observations from a re-analysis of the deposited data

Results flagged for a closer look

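In Sertoli barcodes 4 members had log2 ratios (*Cnot3*-cKO divided by control) with counting intervals wholly below 0, while the intervals lay wholly above 0 in another class of at least 50 barcodes. The difference between classes was not tested, and each class rests on 1 library per genotype. *Wt1* had -0.20 in Sertoli and 2.27 in myoid-rich barcodes. *Amh* had -0.20 in Sertoli, 0.78 in myoid-rich and 1.81 in germ barcodes, and *Amhr2* had -0.10 in Sertoli and 1.51 in germ barcodes. *Sox9* had -0.05 in Sertoli, 0.22 in stroma, 0.57 in myoid-rich and 1.23 in germ barcodes. Without myoid-rich barcodes of Sertoli gene content, the myoid-rich interval spanned 0 for *Sox9* (0.18, -0.20 to 0.56) and *Amh* (0.76, -0.29 to 1.86). For *Wt1* it stayed above 0 (3.05, 2.47 to 3.68). The estimated free RNA share was 3.45% of UMIs in control and 5.61% in *Cnot3*-cKO germ barcodes. It is scaled to Sertoli rule genes and cannot tell free RNA from Sertoli content of single barcodes. *Sox9* made up 136 CPM of the empty barcodes in control and 239 CPM in *Cnot3*-cKO. Without germ barcodes of Sertoli gene content (10 and 4), *Amh* stood at 1.81 and 5.71 CPM (12 and 8 UMIs). *Amhr2* then stood at 1.66 and 6.42 CPM (11 and 9 UMIs) and *Sox9* at 5.13 and 12.1 CPM (34 and 17 UMIs). For each, the intervals of the 2 libraries overlapped. The part of free RNA in these values was not tested. In the wider set of germ barcodes (1260 and 538) the log2 ratios were 0.10 for *Amh*, 0.34 for *Amhr2* and 0.26 for *Sox9*.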

How the results depend on the processing

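Over 9 other settings of filter, Sertoli limit, mixed barcodes, averaging, thinning, denominator, free RNA and calling threshold, the 9 log2 ratios in Sertoli barcodes kept within their main interval in 79 of 81 values, and no member passed 1.5-fold in any. With the Sertoli limit at 0.6%, *Amh* had -0.11 and *Amhr2* -0.15. *Sox8*, whose interval spanned 0, ranged from -0.10 to 0.02. With that limit, 2 members in place of 7 were lower in cycling barcodes of both libraries, and the ratios in *Cnot3*-cKO turned to 0.048 for *Amh* and 0.080 for *Amhr2*. Under the other settings that number was 5 to 8. Without a minimum of UMIs 9 of 64 list genes (14.1%, beside 16.3% of all genes), and with a smaller fold 6 of 48 (12.5%, beside 9.40%), were past it in place of 2 of 48. The log2 ratio of *Wt1* in myoid-rich barcodes was higher than the main 2.27, at 3.79 with free RNA subtracted and 3.05 without barcodes of Sertoli gene content, a setting chosen after seeing the data. In stroma, *Amh* (-0.22) turned to 0.0096 in the wider set, 0.67 with free RNA subtracted and 0.18 without barcodes of Sertoli gene content. Stromal *Sox9* (0.22) turned to -0.094 with free RNA subtracted, but had 0.35 (0.25 to 0.46) in the wider set. Without barcodes of Sertoli gene content, *Sox9* stood at 8.63 CPM in control and 14.3 CPM in *Cnot3*-cKO stroma. The cause was not tested. Samples could not be left out, since each matrix merges both. No paired analysis was possible because the columns carry no sample number. Depth limits *Fshr* in cycling barcodes (60 and 75 UMIs) and all values in endothelial and macrophage barcodes.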
